A study of Saccharomyces cerevisiae with 2 samples.

Results

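The F1 sector of the mitochondrial ATP synthase and the proteins tied to its inhibition were followed through 8 genes of the budding yeast Saccharomyces cerevisiae. They were chosen by name from the 5598 genes with a value on both arrays. ATP1, ATP2, ATP3, ATP15 and ATP16 encode the subunits of F1, and INH1, STF1 and STF2 encode its inhibitor and related factors. All 8 were measured, by 12 array features in all. The study set yeast supplied with 3% pyruvate against yeast supplied with 2% glucose. Pyruvate and glucose RNA shared each of 2 arrays: pyruvate RNA carried Cy3 on array 1 and Cy5 on array 2, and glucose RNA the other dye. The sources used here give no strain, genotype, growth phase or medium beyond the carbon source, so what else the cultures shared is not known. Nor do they state whether the arrays held separate cultures, so every p-value measures the spread from array to array alone, which could be purely technical.

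The ATP synthase is a rotary enzyme of the mitochondrial inner membrane. Protons that flow through its membrane part turn a central stalk inside a ring of alpha and beta subunits, and the beta subunits make ATP from ADP and phosphate. When the membrane potential collapses the enzyme can run backwards and hydrolyse ATP, and the Inh1 protein binds F1 and blocks this reverse reaction. Yeast ferments glucose in plenty and represses many of its respiratory genes there, whereas pyruvate has to be used through mitochondria.

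Each value below is a log2 ratio of pyruvate over glucose, averaged over the features of a gene on an array. A mean is given ± SD with n = 2 arrays, and genes were tested with limma, called at an adjusted p under 0.05 over all genes. The direction is likely but not stated by any source: it takes the deposited ratio as Cy5 over Cy3, the usual order and that of the labelled channels. With the other order every sign would turn and every size would stand. In the order used, ADH2, an alcohol dehydrogenase gene that glucose represses, stood at 6.06 ± 0.31. Deposited ratios of the arrays correlated with r = -0.81 over features of named genes before array 1 was turned, with r = 0.86 over unnamed features and with r = 0.157 over all features. The median of all genes after turning was 0.18 on array 1 and 0.02 on array 2, so each ratio below is to be read against a shift of 0.10 in the mean. In a culture measured in bulk, fewer cells that express a gene and less RNA of that gene per cell cannot be told apart.

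All 5 F1 subunit genes rose in pyruvate, as did INH1, STF1 and STF2. limma called 8 of 8, where 27.1% of all genes were called higher. The median over the 8 genes was 2.77, against 0.10 over all genes. INH1 rose most, 13.7-fold, and STF2 least, 3.75-fold. The adjusted p of the 8 lay between 0.0115 and 0.0165 by limma, and each was higher on 2 of 2 arrays. These calls rest on the moderated variance that limma shares between genes: without moderation, with 1 residual degree of freedom per gene, 0 of 8 passed and their adjusted p ran up to 0.21. At least 2-fold higher on both arrays, a limit used with no test, were 8 of 8 members and 12.7% of all genes.

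**Figure D1:**
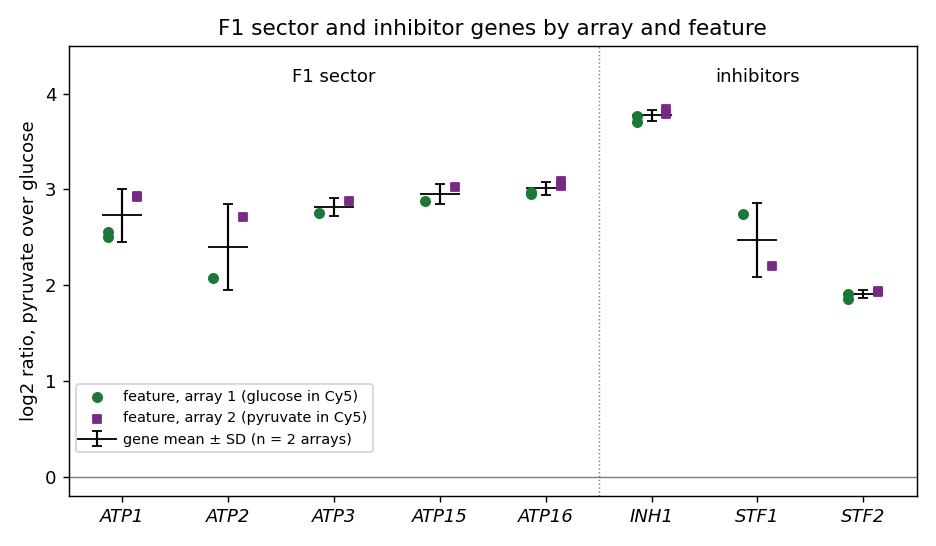
Log2 ratio of pyruvate over glucose (vertical axis) for each of the 8 genes, with a point for each feature on array 1 (circles) and array 2 (squares) and a bar at the gene mean ± SD of 2 arrays. Every point lies above 1.8. INH1 stands apart at the top, and the arrays lie farthest apart for ATP2 and STF1.

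The alpha and beta subunits form the catalytic ring. ATP1, on chromosome II, encodes alpha, which carries non-catalytic nucleotide sites and lends residues to the catalytic ones. Its ratio was 2.53 on array 1 and 2.93 on array 2, with a mean of 2.73 ± 0.28 (6.63-fold, limma adjusted p = 0.0127). Array 2 was the higher, and the 2 features of ATP1 were within 0.054 of each other on each array. ATP2, on chromosome X, encodes the catalytic beta subunit and was measured by 1 feature. Its ratio was 2.08 on array 1 and 2.72 on array 2, a mean of 2.40 ± 0.45 (5.27-fold, limma adjusted p = 0.0165). It was the lowest of the F1 genes on both arrays and the one whose arrays differed most, by 0.64. A gap of that size or more was found in 11.4% of all genes, and the median gap over all genes was 0.18.

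The central stalk, which turns inside the ring, is built of gamma, delta and epsilon. Its genes had closer replicates than those of the ring. ATP3, on chromosome II and measured by 1 feature, encodes gamma, the shaft itself. It was at 2.75 on array 1 and 2.88 on array 2, with a mean of 2.82 ± 0.09 (7.05-fold, limma adjusted p = 0.0115). ATP15, on chromosome XVI and measured by 1 feature, encodes epsilon, which sits at the foot of the shaft. It was at 2.88 on array 1 and 3.03 on array 2, with a mean of 2.95 ± 0.11 (7.74-fold, limma adjusted p = 0.0115). ATP16, on chromosome IV and measured by 2 features, encodes delta, which with epsilon joins the shaft to the membrane rotor. It was at 2.97 on array 1 and 3.06 on array 2, with a mean of 3.01 ± 0.07 (8.08-fold, limma adjusted p = 0.0115). All 3 stalk genes were above ATP2 on both arrays. ATP3 was above ATP1 on array 1 and below it on array 2.

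The genes of the inhibitor and its related factors covered a wider range than those of the F1 subunits, with STF2 at the low end. INH1, on chromosome IV, encodes the ATPase inhibitor itself, and its ratio was 3.74 on array 1 and 3.81 on array 2. The mean was 3.77 ± 0.05 (13.7-fold, 95% interval by limma 11.2 to 16.8, adjusted p = 0.0115), and 46 of the 5598 genes had a higher mean ratio. Its 2 features agreed within 0.055 on each array. STF1, also on chromosome IV, encodes a close relative of Inh1 that can bind F1 as well. By its 1 feature it was at 2.74 on array 1 and 2.20 on array 2, with a mean of 2.47 ± 0.39 (5.54-fold, 95% interval by limma 3.56 to 8.62, adjusted p = 0.0150). STF1 was the only member of the 8 that was lower on array 2 than on array 1, by 0.55, a gap that 13.4% of all genes reached. The median of all genes was also lower on array 2, at 0.02 against 0.18 on array 1, and the gaps were not centred for this. With 1 array for each dye order, a lean to a dye and any other difference between the arrays cannot be told apart.

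STF2, on chromosome VII, encodes a factor first described as stabilising the inhibitor on the enzyme and since tied to survival of drying. Its ratio was 1.88 on array 1 and 1.94 on array 2, with a mean of 1.91 ± 0.04 (3.75-fold, 95% interval by limma 3.08 to 4.58, adjusted p = 0.0124). These were the lowest values of the 8 genes on both arrays, and the gap between the arrays was the smallest of the 8, at 0.056.

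Differences between members were taken within each array. INH1 exceeded STF1 by 0.99 on array 1 and 1.62 on array 2, a mean difference of 1.31 ± 0.44 (n = 2 arrays). It exceeded ATP16, the next in order, by 0.77 on array 1 and 0.75 on array 2, a mean of 0.76 ± 0.01. Thus the ratio of the inhibitor gene was above those of all 5 F1 subunit genes on both arrays, with no overlap. STF2 was below ATP2 by 0.20 on array 1 and 0.78 on array 2. An exact sign permutation test over 2 arrays cannot give a two-sided p below 0.5, and the differences between members were not tested in another way. From the highest mean ratio to the lowest the genes stood as INH1, ATP16, ATP15, ATP3, ATP1, STF1, ATP2 and STF2. Only the step below INH1 and the step above STF2 separated neighbours whose array values did not overlap, while ATP16 to ATP2 formed a run of overlapping neighbours. Of the 28 pairs, 25 had the same order on both arrays, and the 3 that did not were ATP3 with ATP1, ATP1 with STF1, and STF1 with ATP2.

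**Figure D2:**
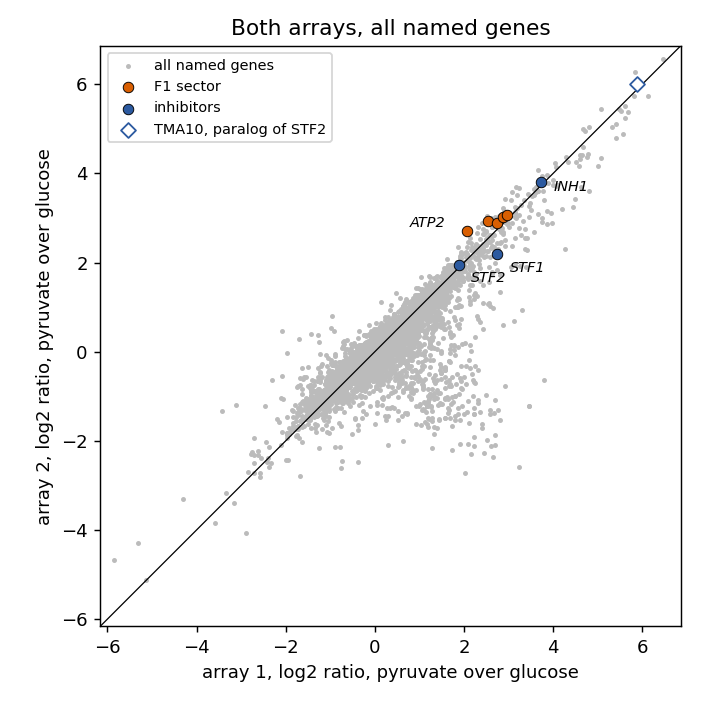
Log2 ratio of pyruvate over glucose on array 1 (horizontal) and array 2 (vertical) for all 5598 named genes in grey. The F1 sector, INH1 with STF1 and STF2 (labelled inhibitors) and TMA10 are marked, with a line where the arrays are equal. The 8 genes lie in the upper right, ATP2 above the line and STF1 below it, and many grey genes lie high on array 1 and below 0 on array 2, where no member lies.

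STF2 has a paralog, TMA10, whose product associates with ribosomes. TMA10 was at 5.88 on array 1 and 6.00 on array 2 by its 1 feature, with a mean of 5.94 ± 0.08 (61.5-fold, limma adjusted p = 0.0115), and 2 genes had a higher mean ratio. It exceeded STF2 on both arrays, by a mean of 4.03 ± 0.05. The pair thus stood on either side of the F1 genes, STF2 below all 5 and TMA10 above them and above INH1. Whether features of INH1 and STF1, or of STF2 and TMA10, also bind the RNA of the paralog was not tested. Of the other genes tied to drying, HSP12, which encodes a small membrane-protecting protein, was at 6.52 ± 0.06 and GRE1, a hydrophilin gene, at 2.03 ± 0.13, both called. SIP18, another hydrophilin gene, was at 2.66 on array 1 and 0.97 on array 2 and did not pass limma (adjusted p = 0.086). It passed with each array centred on its median (adjusted p = 0.00819).

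The remaining structural subunits of the enzyme rose too. Of 9 measured genes of the peripheral stalk, the membrane sector and the dimer interface, 9 were called higher by limma, against 27.1% of all genes, with a median of 2.55. All 9 were at least 2-fold higher on both arrays. ATP18, a small membrane subunit gene, was highest at 3.01 ± 0.07, level with ATP16, and TIM11, which encodes subunit e of the dimer interface, was lowest at 2.18 ± 0.12. ATP5, whose product joins the peripheral stalk to the top of F1, was at 2.82 ± 0.14, next to ATP3. The F1 subunit genes had a median of 2.82 and ran over 2.40 to 3.01, which overlaps the range of the other subunits. INH1 was above all 9. The mitochondrially encoded members of the list, ATP6, ATP8 and OLI1, were not analysed here.

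Genes for building F1 rose by less than those for its subunits. ATP12, whose product chaperones the alpha subunit, was at 0.81 on array 1 and 0.97 on array 2 (mean 0.89 ± 0.12, 1.85-fold). ATP11, the chaperone gene for the beta subunit, was at 1.53 on array 1 and 1.64 on array 2 (mean 1.58 ± 0.08, 3.00-fold). FMC1, needed for F1 assembly in the heat, was at 1.77 on array 1 and 1.69 on array 2 (mean 1.73 ± 0.06). limma called 3 of 3 higher, against 27.1% of all genes, with adjusted p between 0.0126 and 0.0202, and all 3 were below every F1 gene on both arrays. ATP12 did not pass when tested against a 1.5-fold minimum change (adjusted p = 0.14).

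Of 11 further assembly and expression factors, 10 were called higher by limma and 1 was not, against 27.1% of all genes called higher, with a median of 1.07. The count was 8 with each array centred on its median, where 1392 of 5598 genes were called higher. NCA2, which acts on expression of the mitochondrial ATP6 and ATP8 genes, was highest at 1.78 ± 0.02. AEP3, which stabilises the message of those genes, was at 0.56 on array 1 and -0.02 on array 2 and did not pass (limma adjusted p = 0.34). Against the 1.5-fold minimum 5 of the 11 passed, where 573 of 5598 genes were called higher.

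The carriers that feed the enzyme were mixed in direction. PET9, the main ADP/ATP carrier gene, rose to 1.87 on array 1 and 2.35 on array 2 (mean 2.11 ± 0.34, 4.33-fold), and AAC1, a minor isoform, to 1.58 and 1.71 (mean 1.64 ± 0.10). AAC3, the isoform used without oxygen, fell to -1.96 on array 1 and -2.43 on array 2 (mean -2.19 ± 0.33, limma adjusted p = 0.0150). PET9 thus exceeded AAC3 by 3.83 on array 1 and 4.78 on array 2. MIR1, the phosphate carrier gene, rose by 1.92 ± 0.11, while PIC2, which encodes a carrier of copper and phosphate, was at -0.32 ± 0.18 and did not pass (limma adjusted p = 0.12). In this list of 5, limma called 3 higher and 1 lower, where 27.1% of all genes were called higher and 17.2% lower. PET9 and MIR1 were below all 5 F1 genes on both arrays.

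Subunit genes of the respiratory chain had list medians near that of F1. All 9 nuclear genes of the bc1 complex were called higher by limma, against 27.1% of all genes, with a median of 2.93. RIP1, the iron-sulfur protein gene, was highest, at 3.29 on each array, and QCR6 lowest at 2.30 ± 0.20. Of 9 nuclear cytochrome c oxidase genes 8 were called higher, against the same 27.1%, with a median of 2.78 and a wider range, from -0.25 to 3.73. COX12, at 3.73 ± 0.03, was close to INH1, and COX5B, the isoform used with little oxygen, was at -0.25 ± 0.28 and did not pass (limma adjusted p = 0.26). The median of the F1 genes, 2.82, fell between those of these complexes.

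**Figure D3:**
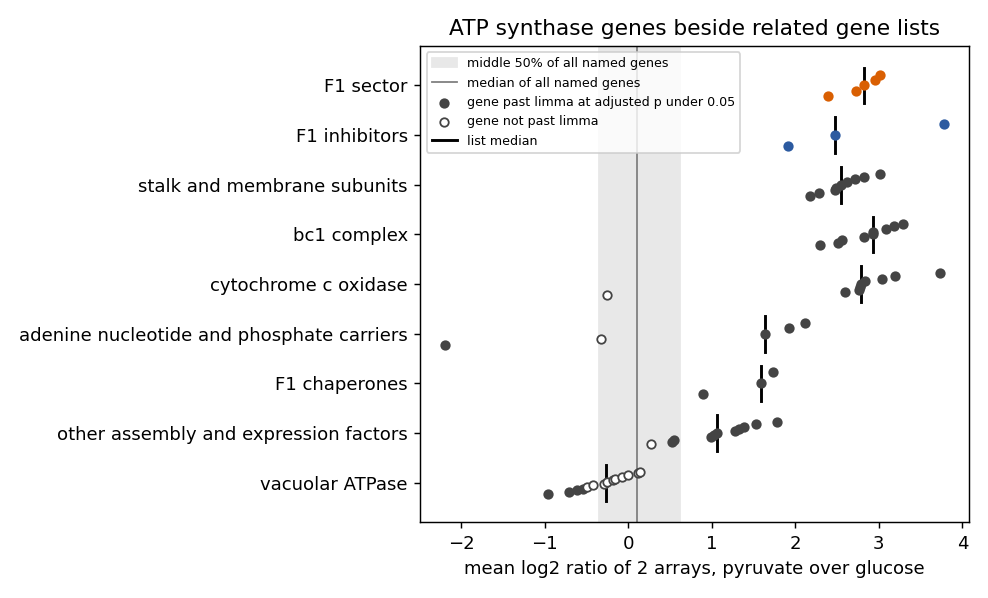
Mean log2 ratio of 2 arrays (horizontal axis) for each gene of 9 lists, filled where limma called the gene and open where it did not, with a bar at the list median and, in grey, the middle 50% of all genes, from -0.35 to 0.62. F1, stalk, bc1 and oxidase genes lie mostly above 2, chaperones and assembly factors between 0 and 2, and vacuolar ATPase genes near or below 0.

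The vacuolar proton ATPase is a rotary enzyme related to the ATP synthase that acidifies the vacuole by spending ATP, and its V1 sector corresponds to F1. Of its 14 measured genes, limma called 0 higher and 4 lower, against 27.1% of all genes called higher and 17.2% lower. Their median was -0.27. VMA1, whose catalytic product corresponds to beta, was at -0.49 ± 0.20, and VMA2, whose product corresponds to alpha, at -0.42 ± 0.07. Neither passed (limma adjusted p = 0.065 and 0.051). Both passed with each array centred on its median (adjusted p = 0.035 and 0.039). ATP2 exceeded VMA1 by 2.71 on array 1 and 3.06 on array 2, and ATP1 exceeded VMA2 by 3.01 on array 1 and 3.30 on array 2.

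Of the 8 V1 genes, 1 was called lower, against 17.2% of all genes. It was VMA5, the subunit C gene, at -0.55 ± 0.12 (limma adjusted p = 0.038). The rotor and stalk genes VMA8 (-0.15 ± 0.11), VMA7 (-0.01 ± 0.02), VMA4 (-0.25 ± 0.10) and VMA10 (0.15 ± 0.17), and VMA13 (-0.07 ± 0.10), did not pass. Among the membrane sector genes VPH1, the vacuolar isoform of the largest subunit, was lowest at -0.95 ± 0.07. The 4 calls were lost against a 1.5-fold minimum change, under which 0 of 14 passed. Over all 5598 genes, 573 passed as higher and 184 as lower.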

How the data were processed

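RNA was labelled with an Agilent low-input linear amplification kit and put on 2-colour arrays with dyes swapped, per the labels. The values are log2 ratios of the channels from the authors' deposited table, 10807 features on 2 arrays; of the scanner, background correction, normalization and channel order the sources used here say nothing. Base 2 was read from the values: 864 features of array 1 matched, to 3 decimals, the base-2 log of one whole number over another, none above 10, and a median of 131 did when values were shifted. On array 2 the most matches, 748, came only after a shift of 0.008, against a median of 136 over the shifts. The table holds no signal over background, and the number of arrays limits the precision.

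Array 1 was multiplied by -1. The platform's annotation gave 1 gene to 9202 features, several to 0 and no gene to 1605; current names were found for 9194. Features were averaged per gene and array. The test was that of limma 3.58.1 in R 4.3.3 (lmFit, eBayes, 1 coefficient, 1 residual and 1.67 prior degrees of freedom, Benjamini-Hochberg over 5598 genes). The step was also run on simulated data with far fewer changed genes than were called here. That simulation held no dye effect and no shift between arrays, so it does not cover them. No dye term was fitted, since it would use up the residual. Python 3.11.15, pandas 2.3.3 and matplotlib 3.10.9 made the tables and figures.

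Members, lists and alternatives were chosen with earlier results of these data known. Besides the 8 members, the rule named TMA10, SIP18, GRE1, HSP12, the highest and lowest gene of each list, all F1 chaperones, carriers and V1 genes, and the 5 genes nearest to the F1 means; ADH2, genes next to a member on the chromosome and others named as exceptions were chosen after values were seen. Coordinates and sequences are not given here. Alternatives were centring or scaling of arrays, robust or no moderation, a 1.5-fold minimum change (limma's treat), 1 feature per gene and leaving out an array.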

Additional observations from a re-analysis of the deposited data

How the results depend on the processing

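All 8 members stayed past limma's threshold, and higher in pyruvate, under 6 of 7 refitted alternatives; without moderation 0 passed. Leaving out an array left their ratios between 1.88 and 3.81, with no test. Without moderation the counts over all genes were 5 higher and 5 lower, against 1519 and 963, and the lists kept 1 bc1 complex gene (RIP1, whose arrays were equal) and 0 calls in every other list, in either direction; that alternative leaves 1 degree of freedom per gene. Against a 1.5-fold minimum, 573 genes were higher and 184 lower, with 5 assembly and expression factors higher and 0 vacuolar ATPase genes lower, V1 genes included. The V1 genes called lower were 1 as reported and 3 with arrays centred. With arrays scaled, robust moderation or the last listed feature they were 2 each. Over all genes, 963 were lower as reported, and 1261, 993, 976 and 947 in these settings in turn. The gene added where 2 were called was VMA2, with its ratio at -0.42 or -0.43. Its limma adjusted p was 0.0505 as reported and 0.0498, 0.0493 and 0.0465 there, on either side of the threshold. The cause of these changes was not tested. VMA7 turned to 0.012 with the first listed feature. Each array holds both conditions, so its ratio is the paired value, and limma's test of these ratios was already a paired analysis. The 2 arrays, and the absence of signal values, limit all of this.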

Other observations

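Of 16 genes that flank a member on the chromosome, in the order of the RefSeq R64 annotation, 15 were measured. limma called 4 of them higher and 3 lower, shares near the 27.1% and 17.2% of all genes. Their median was -0.18, and 0 were at least 2-fold higher on both arrays, against 12.7% of all genes. Beside INH1 stands LYS20, a homocitrate synthase gene of lysine synthesis, which was at -2.45 on array 1 and -2.03 on array 2 (mean -2.24 ± 0.30, limma adjusted p = 0.0138). Beside STF1 stands LYS21, the other homocitrate synthase gene, at -0.84 on array 1 and -0.54 on array 2 (mean -0.69 ± 0.22, limma adjusted p = 0.040). INH1 and STF1 thus each rose next to a member of the LYS20 and LYS21 pair that fell, neighbours singled out after values were seen. On the other side of INH1, AIT1 was called higher, at 0.44 ± 0.09 (limma adjusted p = 0.049). On the other side of STF1, RPP1B was at -0.18 ± 0.01 and did not pass (limma adjusted p = 0.18). DMO1, next to ATP2, was at 2.06 on array 1 and -1.36 on array 2 and did not pass (limma adjusted p = 0.82).

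The 5 genes outside the members whose values on 2 arrays lay nearest to the F1 means, 2.64 on array 1 and 2.92 on array 2, were MHO1, COX13, COR1, COX9 and ATP5, at distances from 0.044 to 0.077. COX13 and COX9 encode subunits of cytochrome c oxidase, and COR1 a core subunit of the bc1 complex. MHO1 belonged to no list and was at 2.65 on array 1 and 2.97 on array 2.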
